A study of Mus musculus with 4 samples.

Results

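The 10 genes described here encode the regulators that set the oxidative capacity of muscle: the coactivators Ppargc1a, Ppargc1b and Pprc1, the nuclear receptors Esrra, Esrrg, Ppara and Ppard, and the mitochondrial gene factors Nrf1, Gabpa and Tfam. They were taken by symbol, with every probe set (a group of short array probes for one transcript) that the annotation table pairs with exactly 1 of these symbols, which gave 25 of the 45101 probe sets on the array and 10 of the 18193 genes that have such a probe set. A further probe set, shared by Ppard and 1810013A23Rik, was not used. The cells were C2C12, an immortalised mouse myoblast line that fuses into myotubes when serum is lowered. They carried a plasmid for a short hairpin RNA, either non-targeting (shControl, 2 arrays) or directed against LSD1 (shLSD1, 2 arrays), and hygromycin had been used to select stable transfectants. All of them were grown in medium with 25 mM glucose, 10% fetal bovine serum and 750 µg/mL hygromycin B, moved to 25 mM glucose with 2% horse serum, and collected after 48 hours of differentiation. The labels give no number of stable lines or hairpin sequences per group, so an effect of 1 line or hairpin and of the knockdown cannot be told apart. They also do not call the replicates separate cultures, so p-values measure how far these arrays differ, and that difference may be technical.

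PGC-1alpha, PGC-1beta and PRC, the products of Ppargc1a, Ppargc1b and Pprc1, do not bind DNA themselves. They are recruited by factors such as the estrogen-related receptors, the PPARs, NRF-1 and GABP, and raise transcription of nuclear genes for respiration and fatty acid oxidation. TFAM, the product of one of those nuclear genes, enters mitochondria and packages and transcribes mitochondrial DNA. LSD1, the product of Kdm1a, is a demethylase of histone lysines, and the comparison asks how transcripts differ when it is depleted during differentiation.

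Among the 10 regulators, 8 had a signal above the filter (a mean of 65.6 on the linear scale, the median of all probe sets) and 2, Esrrg and Ppara, lay below it. None of the 8 was called: 0 passed an adjusted p of 0.05 in limma, a linear model fitted to all 10788 tested genes. Also, 0 had an unadjusted limma p under 0.05. With 2 arrays a group this does not show that the 8 stayed the same, and the intervals below give the changes still allowed. Over all tested genes 15.3% passed the adjusted threshold (8.46% higher and 6.82% lower in the knockdown) and 30.6% the unadjusted one. The limma adjusted p of the 8 lay between 0.208 and 0.834. Of them, 4 had a higher and 4 a lower mean in the knockdown, with a median log2 fold change of -0.01 against 0.00 over all tested genes. In 3, which were Ppargc1b, Esrra and Gabpa, both shLSD1 arrays lay above both shControl arrays, and 0 showed the opposite. Over all tested genes 30.5% were higher and 29.2% lower in this way, 59.6% in all.

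**Figure D1:**
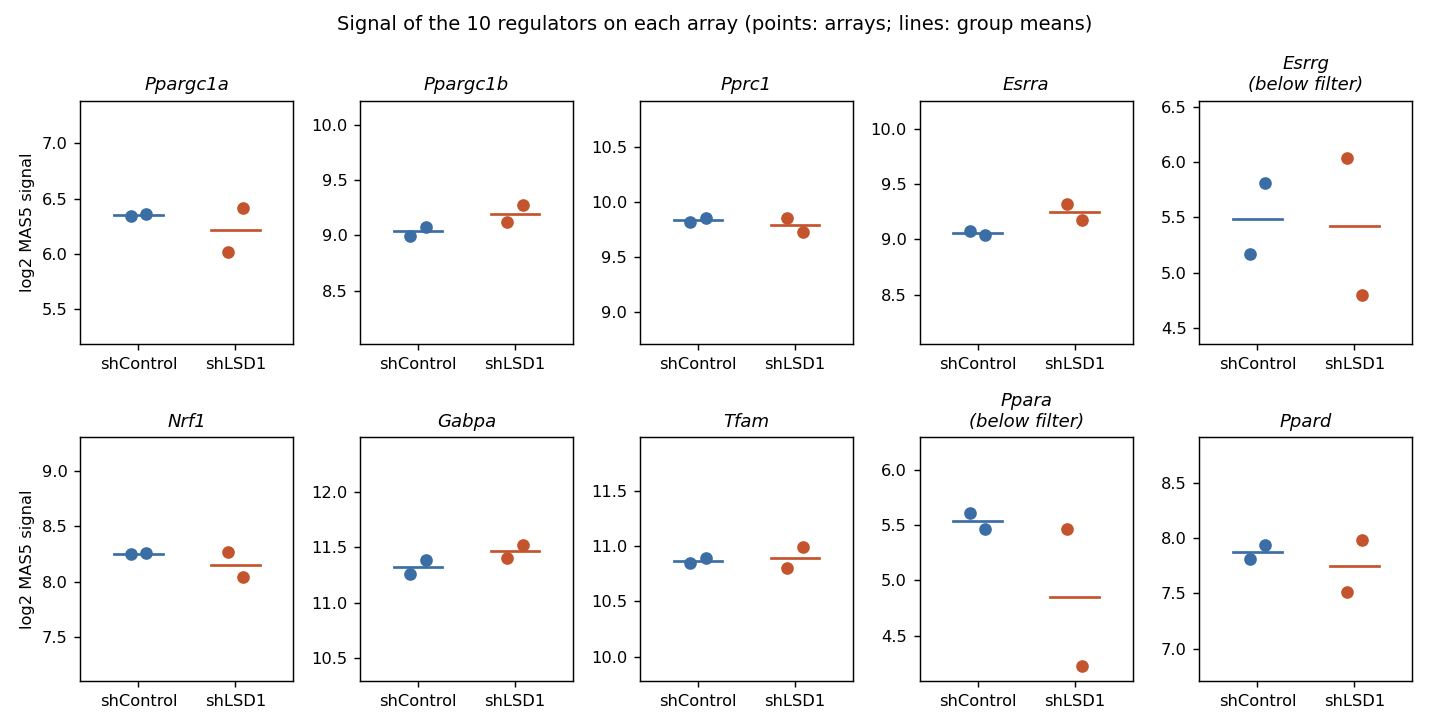
Each panel plots 1 gene, with log2 MAS5 signal on the vertical axis (each panel spans the same number of log2 units around its own gene) and the 2 shControl and 2 shLSD1 arrays as points around their group means (lines). The groups separate, with shLSD1 higher, for Ppargc1b, Esrra and Gabpa and overlap for the other genes; Esrrg and Ppara lie below the signal filter.

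The knockdown and the cell type were checked on the same arrays. Kdm1a gave signals of 1842 and 1912 in the shControl arrays and 301 and 367 in the shLSD1 arrays, which leaves 17.7% of the control level (log2 fold change -2.50, SE 0.11, limma adjusted p = 4.55e-05). All 12 skeletal muscle markers lay above the filter, and 10 of them fell (83.3% against 6.82% of all tested genes), among them myogenin (Myog) and the creatine kinase gene Ckm. Des (-0.09, limma adjusted p = 0.293) and Myod1 (-0.17, limma adjusted p = 0.324) were not called. The summed signal of the 12 was 164350 to 166790 in shControl and 113080 to 122650 in shLSD1. In bulk RNA, fewer differentiated cells and less RNA per cell cannot be told apart. Of 12 measured adipocyte markers 9 lay below the filter, including Adipoq, Ucp1, Cidea and Prdm16, and the list summed to between 987 and 1082 on every array. The 3 above it were not called and did not share a direction, so the sum hides opposite changes. Dio2 read 517 and 505 in shControl and 382 and 458 in shLSD1 (-0.29, limma adjusted p = 0.154). Cebpa read 288 and 273 against 382 and 245 (0.13), and Pparg 126 and 88.1 against 89.1 and 72.6 (-0.39). Of 8 fibroblast and endothelial markers 6 lay below the filter, with sums of 637 and 644 in shControl and 544 and 664 in shLSD1. Within that list members went opposite ways: the matrix gene Lum fell from 148 and 121 to 58.8 and 33.1 (limma adjusted p = 0.0209, a call lost when either shControl array was left out), Dpt, below the filter, read 83.3 and 73.2 in shControl and 8.42 and 8.39 in shLSD1, and Tek, also below it, read 27.8 and 26.4 against 66.9 and 109. The part of these markers in the results below was not tested.

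Promoters of 4 regulators are printed because each holds a motif of a factor in this set or of one that controls Ppargc1a, so that the signals of the factor and of the gene can be read together. Promoter sequences are from RefSeq on GRCm38.p6, matched by symbol for 9 regulators, with 13 windows of 250 bases before to 50 after a start site. The promoter of Ppargc1b is not reported here. The printed part is the 250 bases before the start, 5′ to 3′ on the gene's strand, with the motif in capitals. The motifs searched on both strands were the NRF-1 core GCATGCGC and the full NRF-1 motif, which has the letters GC before that core and so contains it, CCGGAAGT for GABP, TCAAGGTCA for ERR, a direct repeat of AGGNCA with 1 base between for PPAR-RXR, and TGACGT, the short site of CREB and ATF factors. Of 32851 RefSeq promoter windows 0.971% hold the NRF-1 motif, 2.71% its core, 3.89% the GABP motif, 0.423% the ERR motif, 0.381% the PPAR-RXR motif and 7.51% the CREB and ATF site. The NRF-1 core and the CREB and ATF site were added to the search after the promoters were seen.
Ppargc1a (chr5:51567726-51567975, minus strand): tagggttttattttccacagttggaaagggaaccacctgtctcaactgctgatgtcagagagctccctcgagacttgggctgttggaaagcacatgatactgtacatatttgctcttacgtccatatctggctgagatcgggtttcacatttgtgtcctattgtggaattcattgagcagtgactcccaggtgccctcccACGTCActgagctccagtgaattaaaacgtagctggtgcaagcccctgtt
Esrra (chr19:6921809-6922058, minus strand): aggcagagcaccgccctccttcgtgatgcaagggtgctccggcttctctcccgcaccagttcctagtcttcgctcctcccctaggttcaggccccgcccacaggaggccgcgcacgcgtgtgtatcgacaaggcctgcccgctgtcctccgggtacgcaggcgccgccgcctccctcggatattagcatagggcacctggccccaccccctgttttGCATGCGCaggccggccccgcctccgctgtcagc
Ppara (chr15:85735526-85735775, plus strand): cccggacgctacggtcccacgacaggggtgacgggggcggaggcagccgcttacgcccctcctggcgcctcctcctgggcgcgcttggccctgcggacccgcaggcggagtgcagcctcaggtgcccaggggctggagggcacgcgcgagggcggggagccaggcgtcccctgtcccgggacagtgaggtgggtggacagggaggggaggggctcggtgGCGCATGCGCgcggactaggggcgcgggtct
Tfam (chr10:71238045-71238294, minus strand): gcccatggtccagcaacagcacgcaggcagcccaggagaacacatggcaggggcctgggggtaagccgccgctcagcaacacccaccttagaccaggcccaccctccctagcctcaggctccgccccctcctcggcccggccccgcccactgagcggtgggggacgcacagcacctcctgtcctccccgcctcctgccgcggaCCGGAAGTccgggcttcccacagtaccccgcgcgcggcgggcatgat
The CREB and ATF site in Ppargc1a lies 50 to 45 bases before the start, on the other strand. The NRF-1 core in Esrra lies 34 to 27 bases before the start, the full NRF-1 motif in Ppara 31 to 22, and the GABP motif in Tfam 47 to 40. Of the factors, Nrf1 and Gabpa are described below; Creb1 and Atf2, named here after their values were seen, measured 0.19 (SE 0.07, limma adjusted p = 0.120) and 0.04 (SE 0.07, limma adjusted p = 0.760), and the other Creb1 probe sets above the filter gave -0.14 to 0.33. A match is a description of these letters and does not show binding.

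The PGC-1 coactivators were measured first. Ppargc1a, for the coactivator that responds most to exercise and cold, has 5 probe sets. The brightest, 1460336_at, read 81.2 and 82.5 in shControl and 64.9 and 85.2 in shLSD1. The knockdown arrays lay on both sides of the controls. The log2 fold change was -0.14 (SE 0.28, 95% interval -0.79 to 0.52, limma adjusted p = 0.782). Another probe set, 1437751_at, read 78.8 and 53.0 in shControl and 92.4 and 68.6 in shLSD1 (0.30 on the log2 scale), and 1456395_at read 74.5 and 57.3 against 86.5 and 55.6 (0.09). These 3 probe sets lay just above the filter and gave both signs, so no direction can be given for this gene. The remaining pair lay below the filter and also split, with 1434099_at higher and 1434100_x_at lower in both knockdown arrays.

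Ppargc1b encodes PGC-1beta, which drives basal mitochondrial gene expression. Its signal was 511 and 539 in shControl and 556 and 620 in shLSD1. The groups did not overlap, but the gap between them was smaller than the distance between the shLSD1 arrays. The log2 fold change was 0.16 (SE 0.10, 95% interval -0.07 to 0.40, limma adjusted p = 0.328). Pprc1 encodes PRC, the serum-responsive relative that acts in growing cells. It read 904 and 928 in shControl and 924 and 845 in shLSD1, overlapping, with a log2 fold change of -0.05 (SE 0.08, 95% interval -0.24 to 0.14, limma adjusted p = 0.721).

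Of the estrogen-related receptors, orphan receptors that bind PGC-1 without a known natural hormone, Esrra lay above the filter. Its signal was 541 and 526 in shControl and 639 and 578 in shLSD1, higher in both knockdown arrays. The log2 fold change was 0.19 (SE 0.10, 95% interval -0.04 to 0.42, limma adjusted p = 0.241). A dimmer Esrra probe set read 77.5 and 80.8 against 69.0 and 147 (0.35), where 1 shLSD1 array was lower and the other higher than the controls. Esrrg, the receptor of oxidative fibres and heart, stayed below the filter with all 3 of its probe sets. The brightest read 36.0 and 56.0 in shControl and 65.8 and 27.9 in shLSD1, wider within each group than between them. The dimmest Esrrg probe set read 5.84 and 28.9 against 3.39 and 2.38, all far below the filter, where MAS5 signals carry no dependable fold.

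Nrf1 and Gabpa encode the DNA-binding factors that link the coactivators to nuclear genes of the respiratory chain. All 4 Nrf1 probe sets lay above the filter. The brightest read 304 and 306 in shControl and 308 and 263 in shLSD1, a log2 fold change of -0.10 (SE 0.14, 95% interval -0.42 to 0.22, limma adjusted p = 0.666). The others gave 0.01, 0.11 and -0.15, so the 4 readings scatter around 0. Gabpa read 2451 and 2669 in shControl and 2715 and 2936 in shLSD1, and its log2 fold change was 0.14 (SE 0.07, 95% interval -0.02 to 0.30, limma adjusted p = 0.208, the lowest of the 8). Both knockdown arrays were higher than both controls, and the gap between the nearest arrays of the groups was smaller than the distance between replicates. The second Gabpa probe set gave the same size, 0.14, from 406 and 395 against 395 and 495, and there the groups overlapped.

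Tfam, the mitochondrial DNA factor itself, lay nearest to 0 of the 8 on its brightest probe set. It read 1834 and 1895 in shControl and 1783 and 2032 in shLSD1, with a log2 fold change of 0.03 (SE 0.08, 95% interval -0.15 to 0.21, limma adjusted p = 0.834). Its second probe set read 333 and 309 against 281 and 252, lower in both knockdown arrays (-0.27, SE 0.13, limma adjusted p = 0.251). The Tfam probe sets therefore disagree in sign, and neither passed the test.

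The PPARs are fatty acid sensing receptors that act with RXR. Ppard, the main form in skeletal muscle, read 224 and 245 in shControl and 183 and 252 in shLSD1, on both sides of the controls. Its log2 fold change was -0.13 (SE 0.19, 95% interval -0.57 to 0.32, limma adjusted p = 0.701), and its other probe set was near background, at 5.33 to 9.88. Ppara, best known from liver, lay below the filter with 3 probe sets. The brightest read 48.7 and 44.1 in shControl and 44.3 and 18.8 in shLSD1, and the others were under 21 on every array and pointed the other way. With no filter, limma gave -0.69 for Ppara (95% interval -2.05 to 0.68, adjusted p = 0.583) and -0.07 for Esrrg (95% interval -1.41 to 1.27, adjusted p = 0.967).

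Over all probe sets, 16 of the 25 lay above the filter and 0 of them passed the test in a fit of 19940 probe sets, of which 11.8% did. The groups were separate for 4 of the 16, 3 higher and 1 lower, against 56.3% of all probe sets above the filter in either direction. Probe sets of 3 genes, Ppargc1a, Nrf1 and Tfam, gave both signs.

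**Figure D2:**
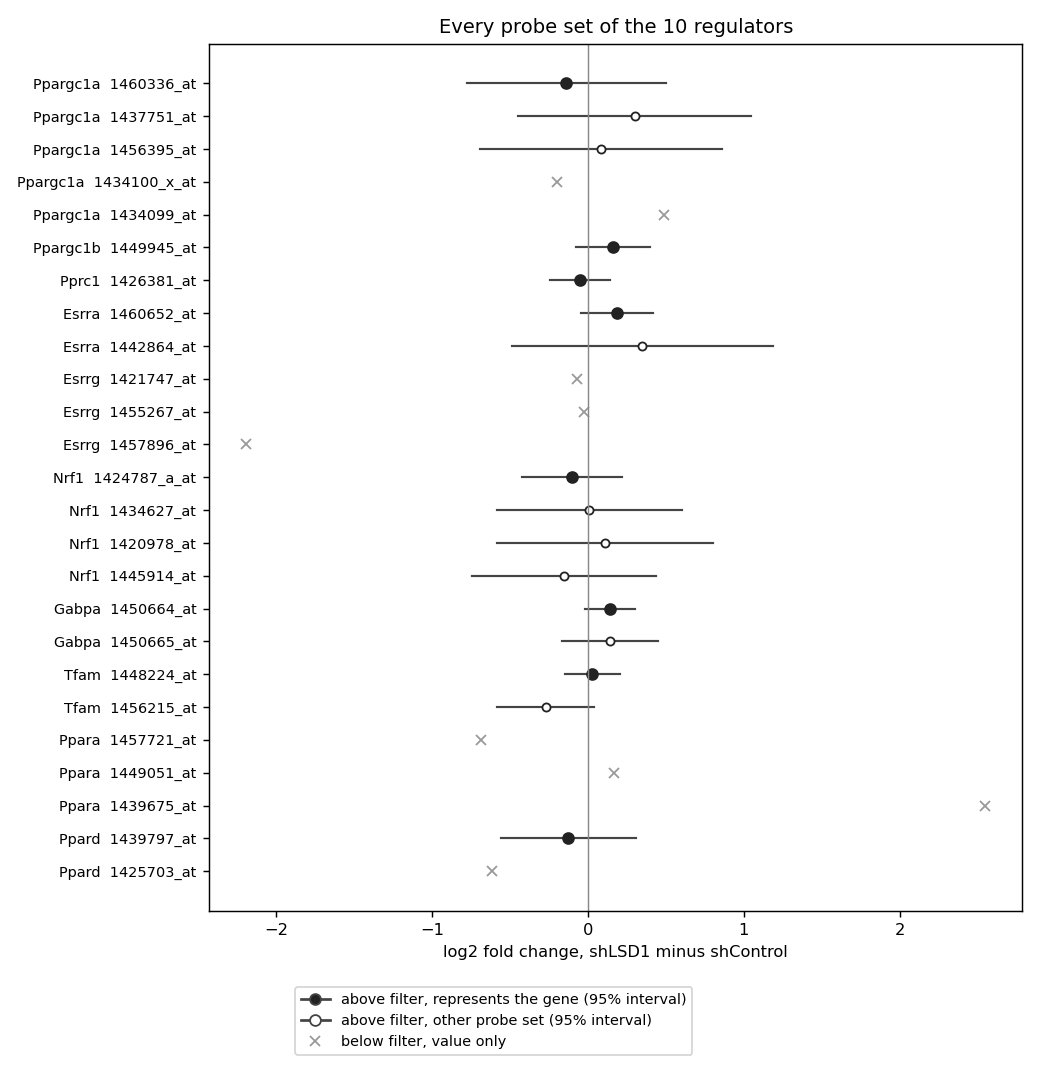
Log2 fold change (shLSD1 minus shControl, horizontal axis) of each of the 25 probe sets, with 95% intervals from limma for the 16 above the filter and crosses for the 9 below it. Every interval includes 0, and the crosses farthest from 0 (an Esrrg probe set at -2.19 and a Ppara probe set at 2.55) are dim ones.

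The width of the intervals differed among the regulators. On the probe set that represents each gene, the end of the 95% interval farthest from 0 corresponded to a 1.16-fold change for Tfam, 1.18-fold for Pprc1 and 1.23-fold for Gabpa. It was 1.32-fold for Ppargc1b and 1.34-fold for both Esrra and Nrf1. For Ppard it was 1.48-fold and for Ppargc1a, the dimmest of the 8, 1.73-fold. Other probe sets of the same genes allowed more. On the log2 scale the interval of the second Tfam probe set ran from -0.58 to 0.04, and that of the second Esrra probe set from -0.49 to 1.19. For Ppargc1a the interval of 1437751_at ran from -0.45 to 1.05, and for Nrf1 that of 1420978_at from -0.58 to 0.80. The second Gabpa probe set allowed -0.17 to 0.45.

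Genes that bind, modify or control the PGC-1 coactivators moved in a few cases. Of 45 tested, 4 fell and 1 rose (11.1% against 15.3% of all tested genes), with a median log2 fold change of -0.06. Prkag3, the AMP-activated kinase subunit of glycolytic muscle, read 1288 and 1356 in shControl and 834 and 817 in shLSD1 and fell by 0.68 (SE 0.07, limma adjusted p = 1.31e-03). The widely expressed subunit Prkag2 rose, from 175 and 152 to 296 and 318 (0.91, SE 0.15, limma adjusted p = 8.08e-03). Prkaa2, the catalytic subunit of muscle, measured -0.11 (limma adjusted p = 0.739). Mef2c, a muscle transcription factor that activates Ppargc1a, fell by 0.88 (SE 0.13, limma adjusted p = 4.26e-03), and its other probe sets gave -0.64 to -0.94. The ubiquitin ligase genes Trim63 and Rnf34, the latter known to degrade PGC-1alpha, fell by 0.41 and 0.27. The corepressor gene Nrip1 measured -0.21 (limma adjusted p = 0.101), the deacetylase gene Sirt1 0.02, the coactivator gene Lpin1 -0.42 (limma adjusted p = 0.256), and Perm1, a muscle gene induced by PGC-1 and ERR, lay below the filter. The other Lpin1 probe set gave 0.02, and the other Nrip1 probe sets above the filter gave -0.24 to 0.25. The call of Prkag3 held without each array in turn. Without shControl replicate 1 or without shControl replicate 2 the list had 2 calls: Trim63 and Rnf34 lost theirs in both cases (Rnf34 also without shLSD1 replicate 1), Mef2c without shControl replicate 1, and Prkag2 without shControl replicate 2.

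Receptor relatives and RXR partners gave 0 calls among 9 tested genes, where 15.3% of all tested genes were called, and 2 had an unadjusted limma p under 0.05, against 30.6% of all tested genes. Their median was -0.21. Rxra, a dimer partner of the PPARs, read 420 and 386 in shControl and 343 and 344 in shLSD1 (-0.23, limma adjusted p = 0.224), with 0.06 from its other probe set. Rxrb measured 0.18 (limma adjusted p = 0.594) and Pparg, the adipocyte PPAR, -0.39 (SE 0.28, limma adjusted p = 0.402). Without shLSD1 replicate 1 the list had 2 calls, one of them Rxrb.

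Partners of NRF-1 and GABP and the machinery of mitochondrial DNA expression gave few calls. Of 29 tested genes 1 rose and 1 fell (6.90% against 15.3% of all tested genes), with a median of -0.02, and 5 had an unadjusted limma p under 0.05 (30.6% of all tested genes). The groups did not overlap for 12 in the higher and 11 in the lower direction, against 30.5% and 29.2% of all tested genes. Top1mt, the mitochondrial topoisomerase, rose from 380 and 402 to 491 and 537 (0.39, SE 0.11, limma adjusted p = 0.0488), and Ptcd3, a mitochondrial ribosome protein, fell from 1299 and 1303 to 1110 and 1009 (-0.30, SE 0.08, limma adjusted p = 0.0381). Neither call was kept when any 1 of the shControl arrays or shLSD1 replicate 2 was left out. Tfb2m and Polrmt, which start mitochondrial transcription beside TFAM, measured 0.00 (SE 0.07) and -0.02 (SE 0.07), and the GABP beta subunit gene Gabpb1 measured -0.15 (SE 0.13, limma adjusted p = 0.470). The polymerase gene Polg measured -0.13 and Tfb1m, a ribosomal RNA methyltransferase gene, 0.29 (SE 0.25). Their other probe sets above the filter gave 0.03 for Polg and 0.01 for Tfb1m. The 1 mitochondrially encoded transcript with a usable probe set, ND5, measured 0.18 (SE 0.10, limma adjusted p = 0.249).

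Nuclear target genes of NRF-1 and GABP gave the narrowest range of these lists. Of 29 tested, 0 rose and 0 fell (15.3% of all tested genes did either), 2 had an unadjusted limma p under 0.05 (30.6% of all tested genes), and log2 fold changes ran from -0.13 to 0.22 with a median of -0.02. The upper end was Cox7c, named after its values were seen, on a probe set near the filter that read 60.8 to 87.1 (SE 0.32). Cytochrome c (Cycs) read 10818 and 10732 in shControl and 11464 and 11341 in shLSD1 (0.08, SE 0.04, limma adjusted p = 0.223), while its other probe sets gave -0.07 and -0.07. Cox5b, a nuclear-encoded cytochrome oxidase subunit, read 11069 and 10091 against 9494 and 9765 (-0.13, SE 0.05, limma adjusted p = 0.142).

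Target genes of PGC-1alpha and the ERRs included 2 that rose and 4 that fell among 40 tested (15.0% against 15.3%), with a median of -0.05. The groups did not overlap in the lower direction for 20 and in the higher direction for 6, against 29.2% and 30.5% of all tested genes. Myoglobin (Mb), the oxygen store of oxidative fibres, fell from 9394 and 9277 to 5586 and 6197 (-0.67, SE 0.06, limma adjusted p = 6.50e-04). Fndc5, which encodes the precursor of irisin, fell from 313 and 317 to 190 and 206 (-0.67, SE 0.14, limma adjusted p = 0.0167), with -0.35 from its other probe set. Ndufa4, a cytochrome oxidase subunit, fell by 0.28 (SE 0.05, limma adjusted p = 7.80e-03) and Timm17a, of the import channel, by 0.18 (SE 0.05, limma adjusted p = 0.0491). The tricarboxylic acid cycle genes Idh3b (0.32, SE 0.06, limma adjusted p = 0.0112) and Cs (0.17, SE 0.05, limma adjusted p = 0.0456) rose. Vegfa measured -0.13 (limma adjusted p = 0.324), the glucose transporter gene Slc2a4 0.36 (SE 0.36) and Ucp3 -0.09 (SE 0.28). Without either shControl array 1 call was left in this list, that of Mb, which is also among the muscle markers above; the part that the lower muscle markers have in these values was not tested.

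Target genes of PPARalpha and PPARdelta were called at the highest rate among the partner and target lists, a difference between lists that was not tested. Of 32 tested, 7 rose and 2 fell (28.1% against 15.3%), with a median log2 fold change of 0.10, and the 2 that fell had the largest changes of the list. Fgf21, a hormone gene of fasting and mitochondrial stress, fell from 2014 and 2080 to 896 and 709 (-1.36, SE 0.11, limma adjusted p = 4.84e-04). Cd36, the fatty acid translocase, fell from 503 and 522 to 215 and 241 (-1.17, SE 0.12, limma adjusted p = 1.20e-03), and its other probe sets gave -0.97 and -0.91. The lipid droplet coat gene Plin2 rose from 4755 and 5193 to 8594 and 7798 (0.72, SE 0.07, limma adjusted p = 7.53e-04). Lipoprotein lipase (Lpl) rose from 940 and 1021 to 1453 and 1689 (0.68, SE 0.09, limma adjusted p = 3.28e-03). The fatty acid transporter gene Slc27a1 rose from 483 and 446 to 894 and 703 (0.77, SE 0.13, limma adjusted p = 7.57e-03). Other probe sets of Lpl and Slc27a1 gave 0.41 and 0.41 and were not called (limma adjusted p = 0.118 and 0.110). These targets of uptake and storage did not share a direction, since Cd36 and Lpl went opposite ways.

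Among the enzymes, Acadm, the medium-chain dehydrogenase of beta-oxidation, rose from 4254 and 4340 to 5166 and 5215 (0.27, SE 0.05, limma adjusted p = 8.76e-03), and Pdk4, the kinase that restrains pyruvate oxidation, from 469 and 461 to 687 and 637 (0.51, SE 0.09, limma adjusted p = 0.0116). Plin4 and Txnip, named after their values were seen, rose by 0.94 and 0.26. The other Txnip probe set gave 0.13 (limma adjusted p = 0.339). Cpt1a, the gate of fatty acid entry into mitochondria, measured 0.13 (SE 0.10, limma adjusted p = 0.442). Its other probe sets above the filter gave 0.50 (limma adjusted p = 0.113) and 0.07. Cpt1b and Ucp2 were not measured by a single-symbol probe set. Angptl4 was below the filter on the probe set chosen and at -0.28 (limma adjusted p = 0.152) on a brighter one. The 4 calls of Fgf21, Plin2, Cd36 and Lpl held without each array in turn. The list had 4 calls without shControl replicate 1 and 5 without shControl replicate 2, as Acadm, Pdk4, Slc27a1, Plin4 and Txnip lost theirs in at least 1 of these cases. As written, the list also holds Ctps, which is not a gene of lipid metabolism and did not pass the test.

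**Figure D3:**
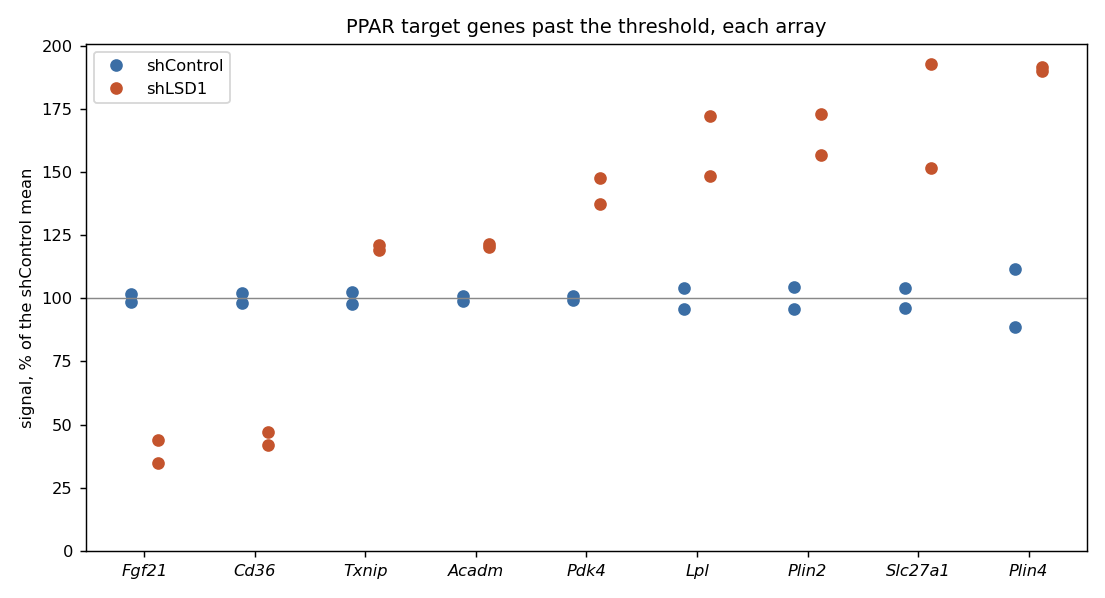
Signal of the 9 PPAR target genes past the threshold as a percentage of that gene's shControl mean (vertical axis, from 0) on each of the 4 arrays. For Fgf21 and Cd36 both shLSD1 arrays lie below 50% and for the other 7 both lie above 100%.

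**Figure D4:**
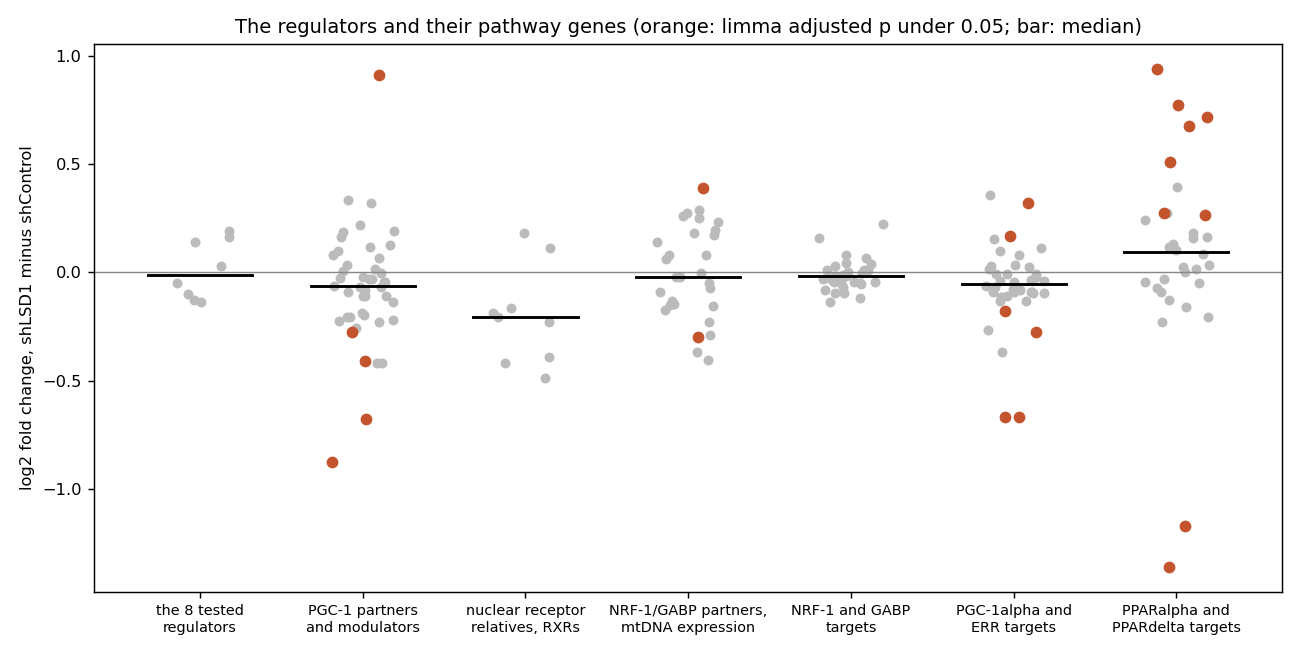
Log2 fold change (shLSD1 minus shControl) of the 8 tested regulators and of the tested genes in 6 lists of partners and targets, 1 point per gene, orange where the limma adjusted p is under 0.05, with bars at the medians. The regulators and the 29 NRF-1 and GABP targets hold no orange point, and the PPAR targets hold 9 of 32.

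The list of slow and fast muscle isoforms tied to the oxidative programme included many calls. Of 19 tested, 11 fell and 2 rose (68.4% against 15.3% of all tested genes), with a median of -0.63. This list also holds Cox6a1, Cox7a2 and Cox8a, cytochrome oxidase forms that do not mark a fibre type. They measured -0.01, -0.03 and -0.05 and were not called. The skeletal muscle markers on the same arrays had 10 calls among 12 and a median of -0.62, and their part in the isoforms was not tested. Myh7, the slow myosin heavy chain, fell from 1910 and 2085 to 692 and 676, and the muscle cytochrome oxidase isoform Cox6a2 from 1774 and 1717 to 771 and 856. The fall was not limited to slow isoforms: the fast isoforms Tnni2 (-0.76), Casq1 (-1.18) and Atp2a1 (-0.68) were also called lower. The 2 that rose, named after their values were seen, were the cytochrome oxidase isoform Cox7a1, 2.30-fold higher, and the slow myosin light chain Myl2, 1.49-fold higher, whose call was lost when either shControl array was left out.

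Genes were also grouped by the motifs spelled out above, and the 10 regulators were left out of each motif group. Of 8763 tested genes with a promoter window 14.5% passed the threshold, with a median of 0.00 and quartiles of -0.13 and 0.16. Genes with the full NRF-1 motif numbered 216, of which 4 rose and 7 fell (5.09%), with a median of -0.02 and quartiles of -0.12 and 0.12. Genes with the GABP motif numbered 841, of which 28 rose and 31 fell (7.02%), with a median of -0.01 and quartiles of -0.12 and 0.11. The shorter NRF-1 core gave 46 of 555 (8.29%) and the CREB and ATF site 135 of 1193 (11.3%). Only 29 tested genes held the ERR motif, of which 1 rose and 2 fell (median 0.06), and 19 the PPAR-RXR motif, of which 0 rose and 1 fell (median -0.02). A promoter that holds a motif is not shown to be bound, and groups can share genes.

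**Figure D5:**
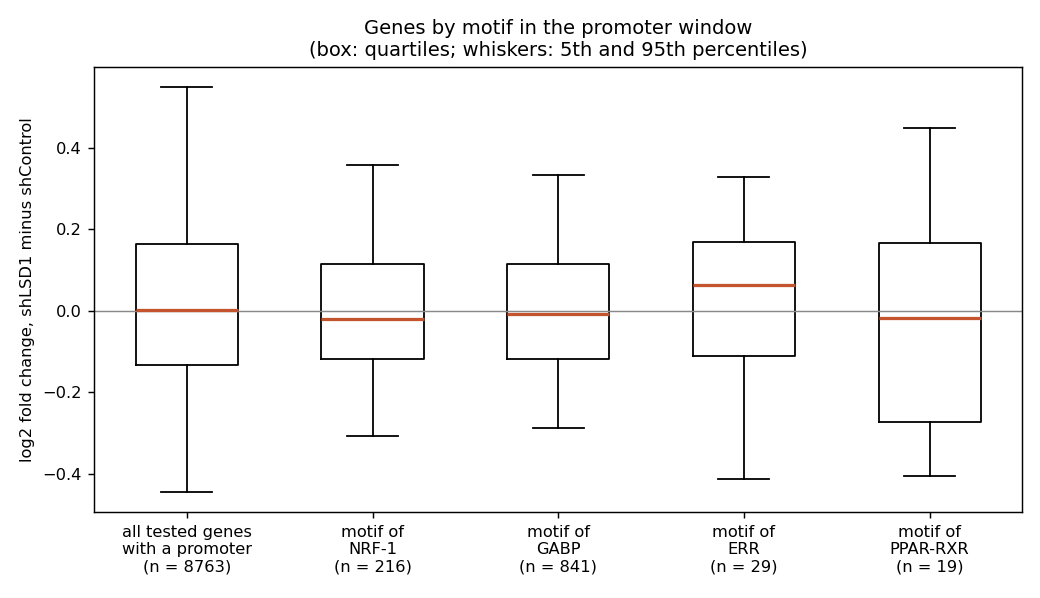
Log2 fold change (shLSD1 minus shControl, vertical axis) of all 8763 tested genes with a promoter window and of those whose window holds a motif for NRF-1, GABP, ERR or PPAR-RXR. Boxes span the quartiles with the median in orange, and whiskers reach the 5th and 95th percentiles; the medians of the 5 groups lie between -0.02 and 0.06.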

How the data were processed

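Total RNA (250 ng per array) was labelled with biotin for Affymetrix 3' expression arrays. The deposited values are MAS5 signal intensities on a linear scale, made with Affymetrix Expression Console, per the submitters' processing notes. Their versions were not given in the sources used here. Each array had a mean of 500.003 after trimming 2% of probe sets at each end, so 1 factor per array had been applied. Array medians were 67.3 to 69.7. The small number of arrays sets the precision.

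Signals under 1 were set to 1 and log2 was taken. Each gene was represented by 1 single-symbol probe set (_x_at and _s_at types avoided where another existed, then the brightest). Genes with a mean log2 signal above 6.04 were tested with limma 3.58.1 (intensity trend) in R 4.3.3. Tests were two-sided and adjusted by Benjamini-Hochberg over 10788 genes. Alternatives changed the scaling, offset, filter, variance model, probe-set choice, replicate block and arrays used. Log2 fold changes are shLSD1 minus shControl. Members, lists and motifs were chosen with earlier results of these data known. Named genes are the members, Kdm1a, up to 6 called genes of each list by smallest adjusted p, and a set list of regulators and targets; others are said to be named after their values were seen. The model was tested on simulated data with independent noise on each array and fewer changed genes than were called here. There the share of false calls averaged close to its nominal level but varied between draws. Such data cannot show whether the real replicates are technical.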

Additional observations from a re-analysis of the deposited data

How the results depend on the processing

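With 2 arrays a group the intervals are wide for dim genes, and signals near background limit what can be said of Ppargc1a, Ppara and Esrrg. No regulator passed the threshold under any of the alternatives run, which were 14 refits and the fit of every probe set. Ppargc1a and Ppard were tested in 12 of the 14, not with the stricter filter or the mean of probe sets. Esrrg and Ppara were tested only with no filter. Esrra, Ppargc1b and Gabpa kept a positive sign in all 14 refits, but most of these could not have turned it. Both shLSD1 arrays lay above both shControl arrays, so leaving out 1 array could not change the sign. Refits that changed only the filter, variance model or replicate block gave the same estimate. The count of 1649 genes past the threshold became 614 without the intensity trend, 900 with each gene's probe sets averaged, 715 at an adjusted p of 0.01 and 2475 at 0.1, and 505 to 2102 when each array was left out (520 without shControl replicate 1, 505 without shControl replicate 2). The replicate numbers did not pair the arrays (correlation of deviations 0.01). With the replicate block 1999 genes and 0 regulators passed, and 1 receptor relative did. Avoiding only _x_at probe sets, an alternative chosen after seeing the data, gave 1722 genes, and a median for the PPAR targets of 0.034.

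With each array left out, Ppargc1a ranged from -0.33 to 0.057, Pprc1 from -0.12 to 0.014, Nrf1 from -0.21 to 0.013, Tfam from -0.065 to 0.12 and Ppard from -0.36 to 0.11. The same ranges were -0.27 to 0.012 for Polg, -0.060 to 0.013 for Polrmt, -0.34 to 0.12 for Prkaa2, -0.13 to 0.50 for Rxrb, -0.086 to 0.12 for Sirt1, -0.21 to 0.93 for Slc2a4, -0.064 to 0.64 for Tfb1m, -0.067 to 0.059 for Tfb2m, -0.31 to 0.13 for Ucp3 and -0.011 to 0.082 for Atf2. With the mean of its probe sets the sign turned for Tfam (-0.12), Cycs (-0.12), Creb1 (-0.22), Rxra (0.052) and Atf2 (-0.0041), and with median centring for Sirt1 (-0.0045).

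With each array left out, the number of calls was 2 to 7 for PGC-1 partners, 0 to 2 for receptor relatives, 0 to 3 for mitochondrial DNA expression, 0 to 2 for NRF-1 and GABP targets, 1 to 8 for PGC-1alpha and ERR targets and 4 to 10 for PPAR targets. List medians then ran from -0.084 to -0.034 for PGC-1 partners, -0.36 to -0.13 for receptor relatives, -0.060 to 0.013 for mitochondrial DNA expression, -0.041 to 0.0074 for NRF-1 and GABP targets and 0.056 to 0.12 for PPAR targets. For slow and fast isoforms they ran from -0.62 to -0.53. Without the intensity trend there were 2 calls among PGC-1 partners, 0 in mitochondrial DNA expression and 2 among PGC-1alpha and ERR targets. With the mean of probe sets these were 3, 0 and 3, and medians were -0.090 for PGC-1 partners, -0.041 for PGC-1alpha and ERR targets and 0.031 for PPAR targets. Mitochondrial DNA expression had 1 call with quantile normalization, 1 with median centring and 0 with no filter. With median centring the medians were -0.041 for mitochondrial DNA expression, -0.039 for NRF-1 and GABP targets and -0.075 for PGC-1alpha and ERR targets. The last was -0.043 with quantile normalization, -0.064 with no filter and -0.042 with the stricter filter. The isoform median was -0.49 with log2(signal + 32). The causes of these differences were not tested. Testing every probe set was run for the count over all genes and for the regulators, not for the lists.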
